A study of Mus musculus with 19 samples.

Results

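Interferon-stimulated genes were examined in the CA1 region of the mouse hippocampus. The set held 44 genes, chosen as established targets of interferon and kept where at least 5 reads were counted in at least 10 of 19 libraries. Earlier results of these data were known when the genes were chosen. All 44 passed, among 19286 genes that passed of 48709 counted. Each library was bulk polyadenylated RNA from microdissected CA1 tissue of male wild-type mice (C57B/6J per the study's methods), and all 3 groups had lipid nanoparticles injected into the dorsal hippocampus. The young mice were 3 months old (n = 6), and the old control (n = 6) and old anti-miR-mix mice (n = 7) were 16.5 months old. Per the study's methods, young and old control mice were given control oligonucleotides. The old anti-miR-mix mice were given a mixture of 3 inhibitors, against miR-181a-5p, against miR-148a-3p and against miR-146a-5p. Groups were taken from the descriptions, because in the titles even libraries of mice without inhibitors carry the name of the anti-miR-mix experiment. No untouched animals were compared here, so what injection, nanoparticles or the later behavioural testing did to these genes, and whether it was equal in the groups, was not tested. Libraries held 26653511 to 38908947 reads, with overlapping ranges (26653511 to 38851370 in young, 26803147 to 37899612 in old control and 27420591 to 38908947 in old anti-miR-mix).

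Type I interferons signal through a receptor made of Ifnar1 and Ifnar2 and through the kinases Jak1 and Tyk2, which phosphorylate Stat2 among other factors. Stat2 joins Irf9 in a complex that binds the interferon-stimulated response element, ISRE, in promoters of genes whose products sense, tag or degrade foreign nucleic acid or hold viruses at membranes. Interferon gamma acts instead through a different promoter element, the gamma-activated site, GAS. In the brain, microglia, astrocytes, endothelial cells and border-associated macrophages can all express such genes. In bulk tissue, fewer cells of a type and less RNA per cell cannot be told apart.

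The inhibitors are shown because they are the treatment that separates the old groups. Below, each mature microRNA carries its seed (bases 2 to 8) in capitals, and each inhibitor carries in capitals the bases opposite that seed.
miR-181a-5p: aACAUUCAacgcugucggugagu
inhibitor of miR-181a-5p: actcaccgacagcgtTGAATG
miR-146a-5p: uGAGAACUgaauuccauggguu
inhibitor of miR-146a-5p: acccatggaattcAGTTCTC
miR-148a-3p: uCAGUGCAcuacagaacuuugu
inhibitor of miR-148a-3p: caaagttctgtagTGCACT
negative control for inhibitor: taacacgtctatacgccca
The microRNAs share no seed with each other (RefSeq, GRCm38.p6). Each inhibitor was fully complementary to its microRNA over its own length: 21 bases, positions 3 to 23, for miR-181a-5p, 20 bases, positions 2 to 21, for miR-146a-5p, and 19 bases, positions 3 to 21, for miR-148a-3p, counted from the 5′ end of the microRNA. The inhibitors therefore covered 6, 7 and 6 of the 7 seed bases. Levels of the mature microRNAs were not analysed here, since the libraries were made from polyadenylated RNA.

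The promoters of the members were searched for 2 binding elements. No promoter sequence was used to choose the genes, but they were chosen as established targets of interferon, so the shares below are not independent of that choice. A window from 250 bases before to 50 bases after the annotated start was given by RefSeq (GRCm38.p6) for 33 of 44 members, and was searched on both strands for the ISRE core, GAAANNGAAA, and for the GAS core, TTCNNNGAA, which reads the same on both strands. The ISRE core lay in the window of 17 of these 33 members (51.5%), against 3.99% of 27025 genes with a window, 56.5% of 46 other interferon-stimulated genes and 17.5% of 40 interferon pathway genes. The remaining 16 members with a window had no match. The GAS core lay in 8 of 33 (24.2%), against 9.55% of all genes, 15.2% of the other interferon-stimulated genes and 27.5% of the pathway genes. The GAS and ISRE cores can overlap. Windows of 30 bases around the ISRE core are printed for members of 6 roles that recur in the results, on the strand of the gene, with capitals from the first to the last base of the matches. In Ifit1 the capitals thus also take in the bases between its 2 separate matches.
Isg15 (chr4:156200871-156200900, minus strand): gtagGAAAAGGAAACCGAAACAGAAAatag
Ifit1 (chr19:34640785-34640814, plus strand): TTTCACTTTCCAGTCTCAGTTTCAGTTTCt
Oas1a (chr5:120907523-120907552, minus strand): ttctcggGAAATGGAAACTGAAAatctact
Gbp3 (chr3:142559992-142560021, plus strand): gacacagTTTCAGTTTCTATTTCccagatc
Bst2 (chr8:71537580-71537609, minus strand): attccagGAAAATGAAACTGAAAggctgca
Stat2 (chr10:128270266-128270295, plus strand): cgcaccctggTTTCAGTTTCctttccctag
The window of Isg15 held 3 matches in tandem, those of Ifit1, Oas1a, Gbp3 and Bst2 held 2, and that of Stat2 held 1. With the start site as 0, the matches began at base -78 in Isg15, -104 in Ifit1, -20 in Oas1a, -45 in Gbp3, -130 in Bst2 and -222 in Stat2. Lgals3bp, Sp100, Irf7, Irf9 and Cmpk2 had no match in their windows, and Ifi27 and Usp18 had no window to search. Members with the ISRE core varied 3.68-fold between their lowest and highest library (median of 17 genes) and members with a window but no match 2.84-fold (median of 16), which is a description without a test.

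The levels of the members were low to moderate. Per kilobase of exon, on the scale of CPM per kilobase averaged over libraries, they ran from 0.375 for Ifi44 to 29.2 for Ifi27, with a median of 2.18. The highest after Ifi27, a small interferon-inducible membrane protein, were Ifitm3, which blocks viral fusion with membranes, at 17.9, and Lgals3bp, a secreted galectin-binding glycoprotein, at 15.3. Among the transcription factors Stat2 stood at 7.19, Irf9 at 3.76, Irf7 at 2.34 and Irf1 at 1.92. The OAS family, which makes the oligoadenylates that activate RNase L or has lost that activity, lay between 0.491 for Oasl1 and 2.86 for Oasl2.

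Libraries of the same group differed widely in these genes. On the scale of log2 CPM, normalised with a prior count of 2, each member was set against its own mean over the 19 libraries, and the median over 44 members gave 1 value per library. In young mice these values were -0.71, -0.21, 0.55, -0.28, -0.03 and 0.01 for replicates 1 to 6. In old control mice they were -0.36, 0.14, -0.08, 0.19, -0.52 and -0.50. In old anti-miR-mix mice they were -0.10, 0.09, 0.49, 1.05, -0.06, -0.16 and 0.41 for replicates 1 to 7. The 3 groups overlapped, with the old anti-miR-mix group holding the highest library and the young group the lowest.

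**Figure D1:**
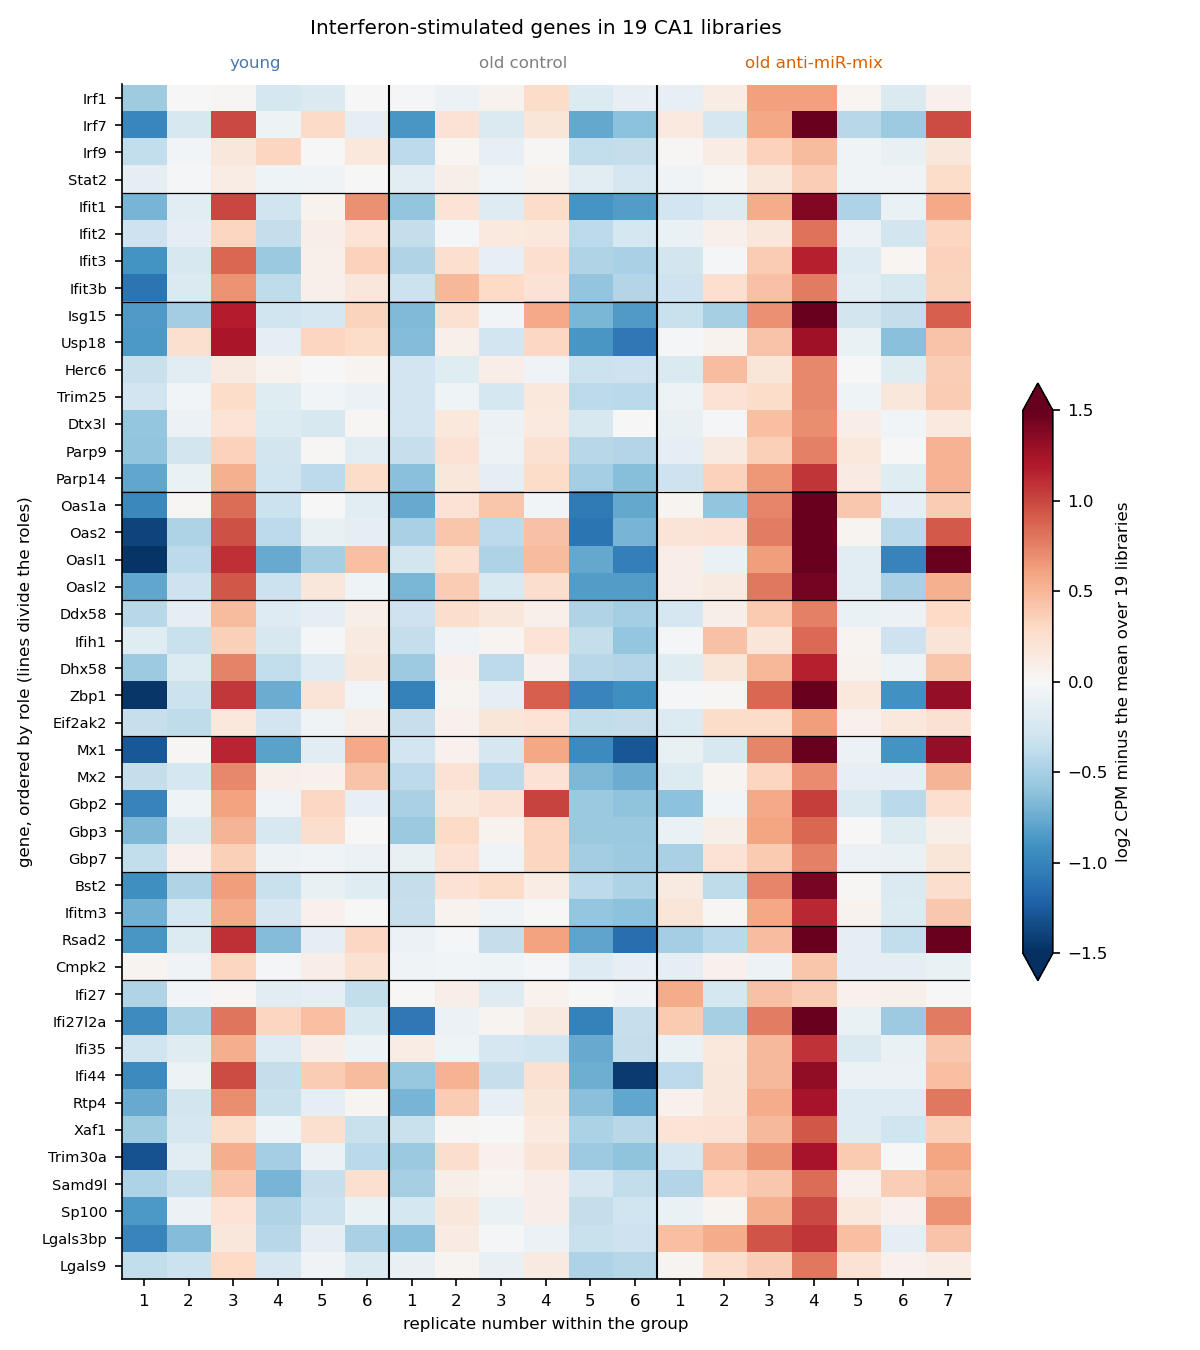
Heat map of log2 CPM minus the mean over 19 libraries for 44 interferon-stimulated genes (rows, ordered by role) in each library (columns, by group and replicate number). Young replicate 3 and old anti-miR-mix replicate 4 are high, and young replicate 1 and old control replicates 5 and 6 are low, across nearly all rows, while Stat2, Cmpk2 and Ifi27 stay pale.

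The members moved together from library to library. Young replicate 3 was the highest of its group for 43 of 44 members and young replicate 1 the lowest for 39. Of all 19286 tested genes, young replicate 3 was highest for 2493 and young replicate 1 lowest for 3783. Old anti-miR-mix replicate 4 was the highest of its group for 42 members (2822 of all tested genes), and replicates 1 and 6 were the lowest for 19 each. In old control mice replicates 4 and 2 were highest for 24 and 16 members, and replicates 6, 5 and 1 were lowest for 21, 13 and 9. The exceptions to the high young library and the high anti-miR-mix library were Irf9, which was highest in young replicate 4, Ifi27, highest in old anti-miR-mix replicate 1, and Oasl1, highest in old anti-miR-mix replicate 7.

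A separate list of 57 other interferon-stimulated genes, of which 54 were tested, followed the same libraries. Young replicate 3 was highest of its group for 44 of these 54 and old anti-miR-mix replicate 4 for 48. By contrast the 35 tested genes of the interferon pathway (receptors, kinases, sensors and regulators) had library medians between -0.12 and 0.16. Their within-group SD had a median of 0.13 in young, 0.11 in old control and 0.14 in old anti-miR-mix, close to the medians of 0.13, 0.13 and 0.15 over all tested genes.

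**Figure D2:**
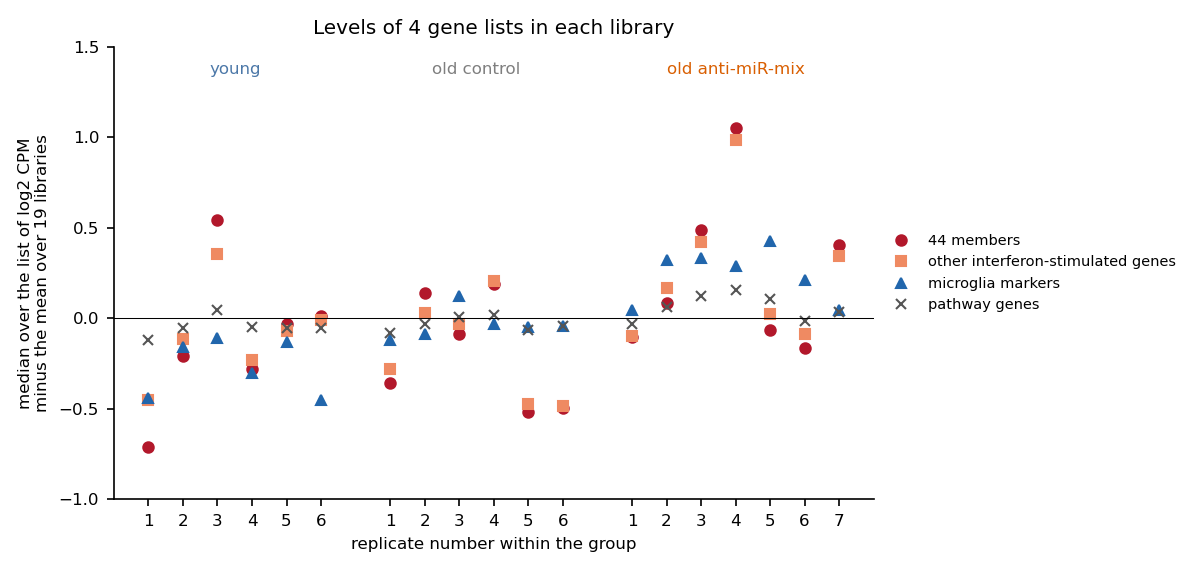
Median over each of 4 gene lists of log2 CPM minus the mean over 19 libraries (vertical axis) for every library (horizontal axis, replicate number within the group). Circles (44 members) and squares (54 other interferon-stimulated genes) move together between -0.71 and 1.05, crosses (35 pathway genes) stay near 0, and triangles (14 microglia markers) are above 0 in all 7 old anti-miR-mix libraries.

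This spread was larger than counting allows. The SD of log2 CPM between libraries of a group had a median over members of 0.43 in young, 0.34 in old control and 0.43 in old anti-miR-mix, against 0.09, 0.10 and 0.08 from Poisson counting alone at these depths. The ratio of the SD between libraries to the counting SD had a median of 4.05, 3.27 and 4.75 over members, and of 1.45, 1.44 and 1.70 over all tested genes. It was above 2 for 42, 37 and 44 of the 44 members, against 31.0%, 30.8% and 40.9% of all tested genes. Of the 14 microglia markers, 13, 11 and 14 had a ratio above 2, with medians of 3.50, 2.43 and 3.87. Oasl1, an OAS-like protein, had the largest SD among members in young mice (0.91) and in old anti-miR-mix mice (1.12). Cmpk2, a mitochondrial nucleotide kinase, had the smallest in old control mice (0.06), and Stat2 had the smallest in young (0.08) and in old anti-miR-mix mice (0.18).

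**Figure D3:**
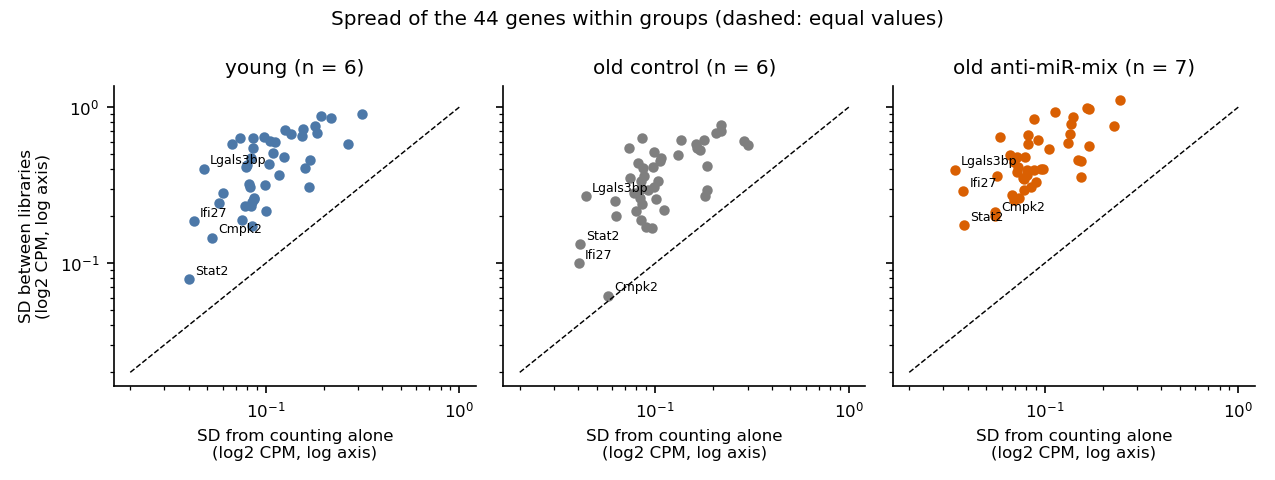
SD of log2 CPM between libraries (vertical, log axis) against the SD expected from counting alone (horizontal, log axis) for 44 genes in each group, with the dashed line at equal values. All points lie above the line, and Stat2 and Cmpk2 are among the 3 lowest in each panel.

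Of the sum of squares of log2 CPM over the 19 libraries, the part that lay between groups had a median of 23.6% over the 44 members, with a range from 1.38% for Gbp2, a guanylate-binding protein, to 61.0% for Lgals3bp. The median over all tested genes was 14.7%, and over 14 microglia markers 64.3%. From the lowest to the highest of the 19 libraries the members spanned 1.52-fold (Cmpk2) to 11-fold (Zbp1, a sensor of left-handed nucleic acid), and 19 of 44 spanned more than 4-fold.

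Some features of the libraries ran alongside. The deposited log2 table carries a correction by a number from 1 to 4 for each library, whose source was not described. Number 3 was carried by young replicates 3 and 4 and old anti-miR-mix replicates 3, 4 and 5, and by no old control library. The member medians of these libraries were 0.55, -0.28, 0.49, 1.05 and -0.06. The part of this number in the levels of the members was not tested. Old control replicates 5 and 6, the lowest of their group, carried number 4 and differed less from each other than any other pair of libraries within a group (chi-square per degree of freedom 2.18 over 12780 genes, against 6.10 for the next pair). Since this exceeds sampling noise they were kept as 2 libraries, which does not show that they came from separate animals. Results are given also with both counted as 1 where that changes a call. CA1 pyramidal markers summed to 698 to 1003 CPM, CA3 markers to 59.3 to 70.0 CPM and dentate granule markers to 44.9 to 111 CPM. These sums are over different genes, so they do not measure how pure the CA1 tissue was.

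Markers of other cell types also differed between these libraries. T and NK cell markers (8 of 10 tested, with Cd3d and Gzmb below the read minimum) summed to 1.29 to 3.85 CPM in young, 1.88 to 4.45 in old control and 2.95 to 7.58 in old anti-miR-mix mice, with the maximum in old anti-miR-mix replicate 4 and the minimum in young replicate 1. Border macrophage markers (8 of 8 tested) summed to 5.90 to 15.5, 6.96 to 9.15 and 8.27 to 18.7 CPM. Microglia markers (14 of 14 tested) summed to 401 to 500, 497 to 567 and 550 to 722 CPM, and old anti-miR-mix replicate 4, at 663, was not the maximum of its group. Endothelial markers (10 of 10 tested) summed to 262 to 297, 258 to 269 and 241 to 294 CPM. Oligodendrocyte markers (8 of 8 tested) summed to 7206 to 11411, 6376 to 7591 and 6487 to 9583 CPM, and astrocyte markers (8 of 8 tested) to 5891 to 6443, 6483 to 7173 and 6188 to 7729 CPM. Leptomeningeal fibroblast markers (8 of 8 tested) summed to 58.2 to 252, 105 to 162 and 92.2 to 211 CPM. Choroid plexus markers (7 of 8 tested) summed to 83.3 and 87.4 CPM in old control replicates 5 and 6, against 21.1 to 44.4 in the other old control libraries, and to 17.4 to 30.1 CPM in young and 17.7 to 108 CPM in old anti-miR-mix mice. The part of these cells in the levels of the members was not tested.

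The comparison of old control with young mice asks whether age alters these genes. None of the 44 members changed at an adjusted p of 0.05 (edgeR's quasi-likelihood test with Benjamini-Hochberg adjustment over 19286 genes), where 2.67% of all tested genes did (1.32% higher and 1.34% lower in old control mice). At an unadjusted p under 0.05 there were 2, Irf9 and Cmpk2, both lower in old control mice, or 4.55% of the members against 18.1% of all genes (9.14% higher and 8.92% lower). DESeq2 called 0 members, and 4.52% of all genes. The fitted log2 fold change was above 0 for 12 of 44 members, against 52.2% of all genes, and its median was -0.14, against 0.01 over all genes. In no member did the 2 groups fail to overlap, against 1.25% of genes that were wholly higher and 1.28% wholly lower in old control mice. Without young replicate 3 the median was 0.03, and with the processing number as a factor it was 0.02, so its sign changed under both.

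**Figure D4:**
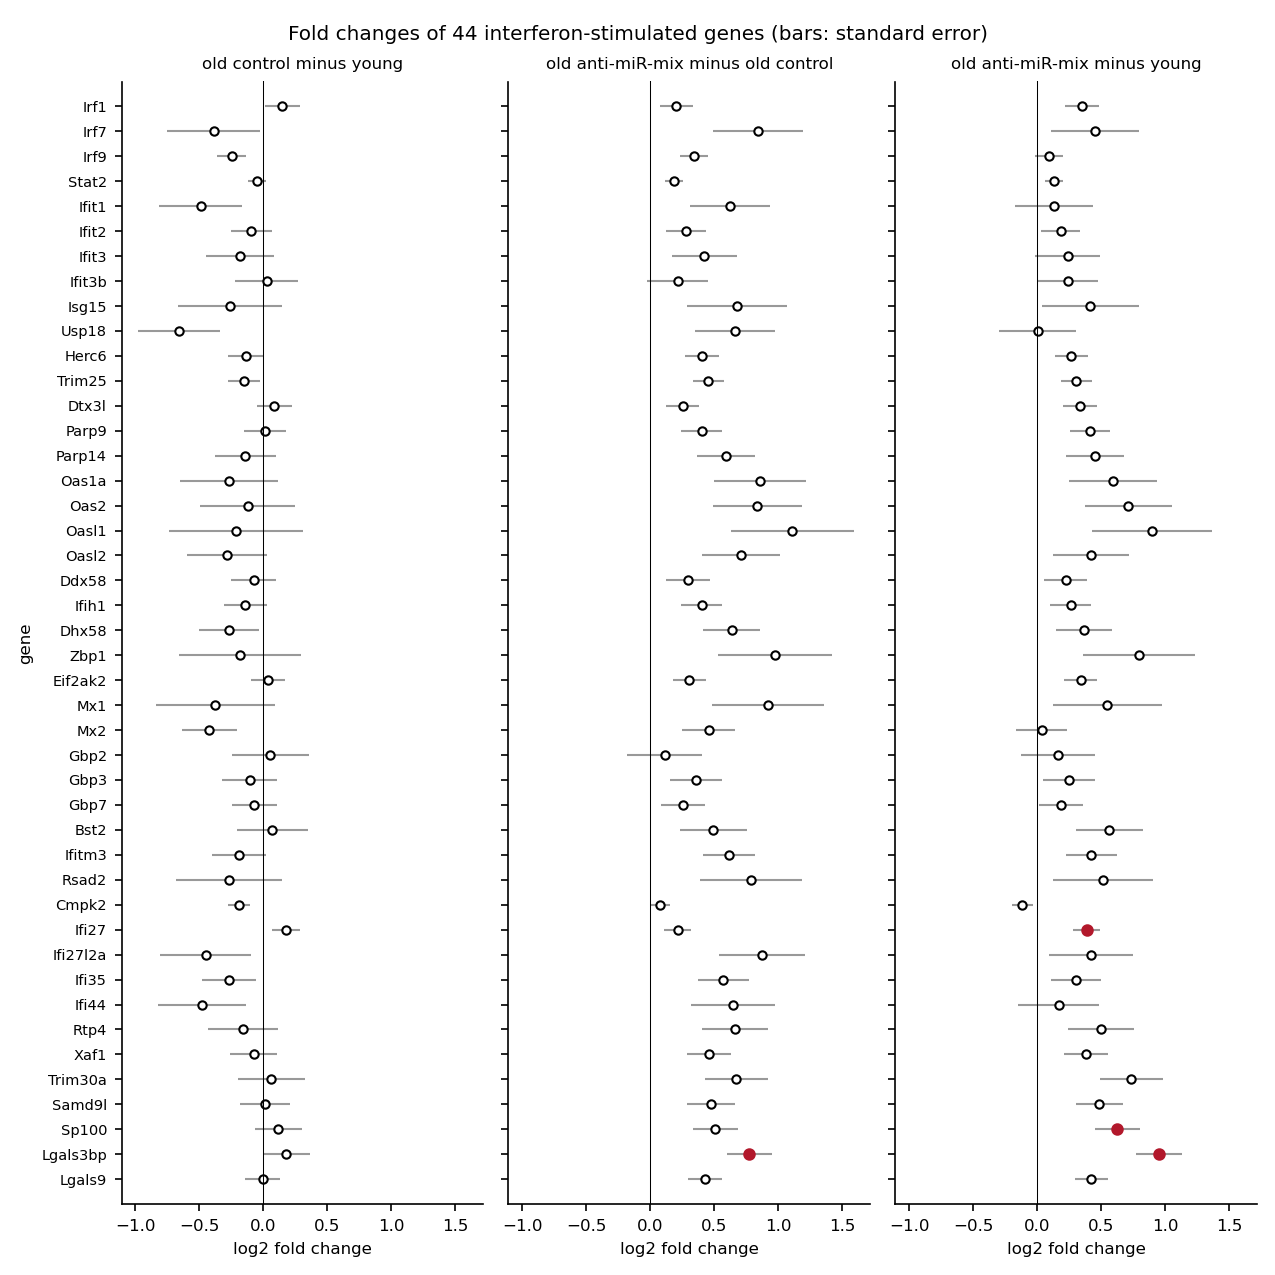
Log2 fold change (points) with its standard error (bars) for 44 interferon-stimulated genes in 3 comparisons, from edgeR. Filled red points passed an adjusted p of 0.05 and open points did not, with 0 filled in the left panel, 1 (Lgals3bp) in the middle and 3 (Ifi27, Sp100 and Lgals3bp) on the right.

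Among transcription factors, Irf9, the DNA-binding partner of Stat2, had a log2 CPM of 3.95 to 4.65 in young mice (median 4.40) and of 3.93 to 4.35 in old control mice (median 4.08). Young replicate 1 lay within the old control range while the remaining young libraries lay at its upper end or above. Fold changes are given on the log2 scale ± SE, and that of Irf9 came to -0.25 ± 0.11 (adjusted p = 0.253 in edgeR). Irf7, which amplifies the interferon response, ranged from 1.99 to 3.96 in young mice (median 2.86) and from 2.10 to 3.19 in old control mice (median 2.56), with a log2 fold change of -0.39 ± 0.36. The old control libraries lay wholly inside the young range. Stat2 ranged from 5.28 to 5.51 and from 5.15 to 5.49, and its log2 fold change was -0.05 ± 0.07. Irf1, which responds to both interferon types, was 1 of the 12 members with a value above 0 (0.15 ± 0.14).

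Usp18, a protease that removes Isg15 from proteins and restrains the receptor, had the largest absolute log2 fold change of this comparison. Its log2 CPM was 1.00 to 3.08 in young mice (median 2.12) and 0.78 to 2.17 in old control mice (median 1.39). The young group was higher at each of these points, but young replicate 1 lay below 4 of 6 old control libraries. The log2 fold change was -0.66 ± 0.32 (adjusted p = 0.284 in edgeR). Isg15 itself, a ubiquitin-like modifier, ranged from 0.87 to 2.90 in young and from 0.86 to 2.29 in old control mice, with medians of 1.45 and 1.36 and a log2 fold change of -0.26 ± 0.41, which turned to 0.11 without young replicate 3. Young replicate 3 was the only young library above the old control range.

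The IFIT proteins, which bind the ends of foreign RNA, showed the same overlap. Ifit1 ranged from 2.52 to 4.22 in young mice (median 3.17) and from 2.33 to 3.49 in old control mice (median 2.83), with a log2 fold change of -0.49 ± 0.32 (adjusted p = 0.453 in edgeR). Only young replicate 3, at the top, and young replicate 6 lay above the old control range. For Ifit3 the ranges were 2.92 to 4.67 and 3.33 to 4.07, and the log2 fold change of -0.18 ± 0.27 turned to 0.06 without young replicate 3. Ifit3 and Ifit3b are near-identical neighbours between which reads may be split, so their separate values are uncertain.

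The remaining roles also had no call in this comparison. Adjusted p lay between 0.686 and 0.899 for the OAS family, between 0.596 and 0.925 for the sensors of nucleic acid (Ddx58, which is RIG-I, Ifih1, Dhx58, Zbp1 and Eif2ak2, the RNA-activated kinase PKR) and between 0.306 and 0.949 for Mx proteins and guanylate-binding proteins. Mx2 had a log2 fold change of -0.42 ± 0.22, Ifi44 of -0.48 ± 0.34 and Ifi27l2a of -0.45 ± 0.35. Old control mice had a log2 CPM of Mx2 from 0.64 to 1.60 and young mice from 1.03 to 2.10. Cmpk2 ranged narrowly, from 4.42 to 4.79 in young and from 4.28 to 4.45 in old control mice, which overlapped at their ends, with a log2 fold change of -0.19 ± 0.08 (adjusted p = 0.224 in edgeR). Within the OAS family the log2 fold change of Oasl2 was -0.29 ± 0.31. Among sensors that of Ifih1 was -0.14 ± 0.17, and that of Ddx58 was -0.07 ± 0.18, which turned to 0.03 with the processing number as a factor. Gbp3 had -0.11 ± 0.21, Ifitm3 -0.19 ± 0.21, Rtp4 -0.16 ± 0.27, and Bst2, which tethers budding viruses, 0.07 ± 0.28. The members with the largest values above 0 were Lgals3bp (0.18 ± 0.19), Ifi27 (0.17 ± 0.11) and Irf1.

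The comparison of the old groups asks what the inhibitors did to these genes. Lgals3bp rose in old anti-miR-mix mice, as the only member of 44 to change at an adjusted p of 0.05, where 0.669% of all tested genes did, all of these higher. Its log2 CPM was 4.72 to 5.47 in old control mice (median 5.14) and 5.19 to 6.41 in old anti-miR-mix mice (median 5.80). Old anti-miR-mix replicate 6 lay inside the control range, and the other 6 libraries lay above every control library. The log2 fold change was 0.77 ± 0.18 (adjusted p = 0.0448 in edgeR).

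The call for Lgals3bp rested close to the threshold. Across 31 other ways to run the fit its log2 fold change stayed between 0.51 and 0.87, and its adjusted p lay between 0.00851 and 0.743, with 10 of 31 under 0.05. With the processing number as a factor it was 0.53 ± 0.17 (adjusted p = 0.454 in edgeR), and with old control replicates 5 and 6 counted as 1 library 0.75 ± 0.19 (adjusted p = 0.12 in edgeR). Those 2 fits called fewer genes of any kind, 0.0467% and 0.171% of all tested genes, against 0.669% in the first fit. Within numbers the old anti-miR-mix mean exceeded the old control mean by 0.70 (number 1), 0.55 (number 2) and 0.17 (number 4), with 1 or 2 libraries on each side. Without old anti-miR-mix replicate 4 it was 0.67 ± 0.17 (adjusted p = 0.123 in edgeR).

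**Figure D5:**
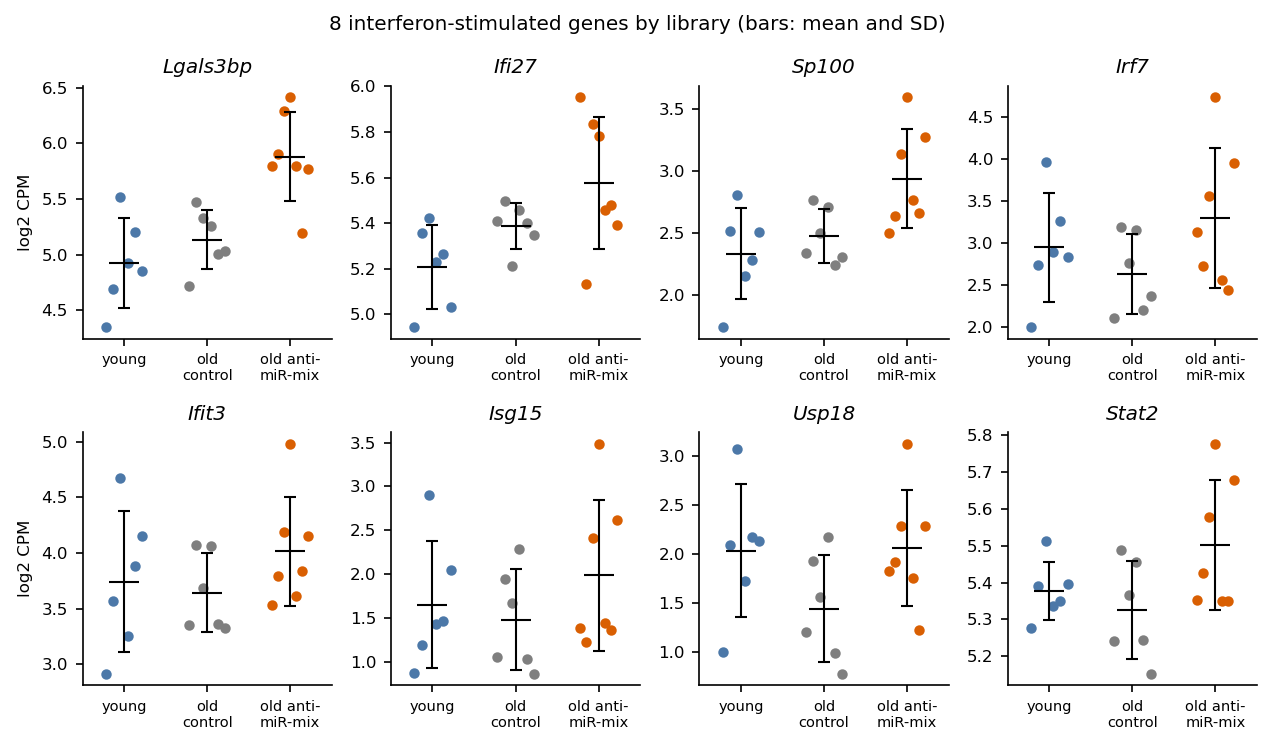
Log2 CPM of 8 members (panels) in each library of the 3 groups (points), with the group mean and SD (bars), on separate vertical scales. Lgals3bp in old anti-miR-mix mice lies above the old control range in 6 of 7 libraries, whereas Irf7, Ifit3, Isg15 and Usp18 overlap across the 3 groups.

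The other 43 members did not pass the threshold. All 44 had a fitted log2 fold change above 0, against 50.2% of all genes, with a median of 0.48 (0.00 over all genes). At an unadjusted p under 0.05 there were 28 members, all higher in old anti-miR-mix mice, where 10.5% of all genes reached it (7.16% higher and 3.35% lower). DESeq2 called 2 at an adjusted p of 0.05 (Trim25 and Lgals3bp), and 1.36% of all genes. The counts were lower under other fits: 10 members reached an unadjusted p under 0.05 without old anti-miR-mix replicate 4 (5.26% of all genes were higher), where the median was 0.34, and 4 did with the processing number as a factor (4.46% of genes), where it was 0.29. With old control replicates 5 and 6 counted as 1 library 20 members did (6.12% of genes), and the median was 0.44. That fit called 0.171% of all genes at an adjusted p of 0.05. The members move together from library to library, so they are not separate pieces of evidence. They were also chosen with earlier results of these data known, so the shares over all genes do not measure chance. In no member were the groups apart, where 0.425% of all genes were wholly higher and 0.0726% wholly lower in old anti-miR-mix mice.

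Within numbers, the median over the members was higher in old anti-miR-mix than in old control libraries by 0.01 for number 1 (1 against 2 libraries), by 0.19 for number 2 (2 against 2) and by 0.34 for number 4 (1 against 2). Number 3 held 3 old anti-miR-mix and 0 old control libraries, so the old groups could not be compared within it.

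By role, the OAS family had the largest values, from 0.71 to 1.11, and all 4 of its members had an unadjusted p under 0.05 with adjusted p from 0.382 to 0.408. Oasl1, which restrains translation of Irf7, had a log2 CPM of -0.92 to 0.57 in old control mice (median -0.27) and of -0.91 to 2.08 in old anti-miR-mix mice (median 0.20), and a log2 fold change of 1.11 ± 0.48. Old anti-miR-mix replicates 4 and 7 were far above the rest, and replicate 6 was as low as the lowest control. Oasl2 ranged from 3.21 to 4.43 (median 3.60) and from 3.57 to 5.49 (median 4.19), with 0.71 ± 0.30. Oas1a, from -0.82 to 0.65 and from -0.35 to 2.01, had 0.86 ± 0.36, and Oas2 had 0.84 ± 0.35. Oas1a has near-identical paralogs, so its reads may be shared with them.

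Of the 4 transcription factors, 3 had an unadjusted p under 0.05, and their median of 0.27 was the lowest of the roles. Irf9 had a log2 CPM of 3.93 to 4.35 in old control mice (median 4.08) and of 4.21 to 4.80 in old anti-miR-mix mice (median 4.44), a shift of 0.34 ± 0.11 (adjusted p = 0.21 in edgeR) with an overlap at the ends of the ranges. Irf7 ranged from 2.10 to 3.19 and from 2.43 to 4.73, with medians of 2.56 and 3.12 and a log2 fold change of 0.84 ± 0.35 (adjusted p = 0.385 in edgeR). Its 3 highest libraries were old anti-miR-mix replicates 4, 7 and 3, and the other 4 lay within the control range. Stat2 ranged from 5.15 to 5.49 and from 5.35 to 5.78, with 0.18 ± 0.07 (adjusted p = 0.341 in edgeR), the smallest of the 4.

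The Isg15 system had 5 of 7 members at an unadjusted p under 0.05. Trim25, a ubiquitin ligase that activates Ddx58, had the lowest adjusted p after Lgals3bp. Its log2 CPM was 3.23 to 3.79 in old control mice (median 3.36) and 3.56 to 4.35 in old anti-miR-mix mice (median 3.86), and its log2 fold change was 0.45 ± 0.12 (adjusted p = 0.0994 in edgeR). Old control replicate 4 was the library that overlapped the treated group most. Herc6, the ligase that attaches Isg15 in mice, had 0.40 ± 0.13, Parp14 0.59 ± 0.23, Parp9 0.40 ± 0.16 and its partner Dtx3l 0.25 ± 0.13. Parp9 and Dtx3l lie on opposite strands and share 458 exon bases. Whether strand was kept in the counts is not given in the sources used here, so reads from these bases may not be assigned to the right gene. Isg15 had medians of 1.36 in old control and 1.45 in old anti-miR-mix mice, and its log2 fold change of 0.68 ± 0.39 was 0.29 without old anti-miR-mix replicate 4. Usp18 had medians of 1.39 and 1.92 and a log2 fold change of 0.66 ± 0.31.

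Among sensors, Zbp1 had the largest value at 0.97 ± 0.45, with a log2 CPM of 0.02 to 1.94 in old control (median 0.52) and 0.13 to 3.04 in old anti-miR-mix mice (median 1.20). Old anti-miR-mix replicates 4 and 7 were its highest libraries. Dhx58 had 0.64 ± 0.22, Ifih1 0.40 ± 0.16, Eif2ak2 0.31 ± 0.13 and Ddx58 0.30 ± 0.17. Of the GTPases, Mx1 ranged from -0.06 to 1.81 in old control and from 0.33 to 3.13 in old anti-miR-mix mice and had 0.92 ± 0.44, and Mx2 0.46 ± 0.21, while Gbp3 (0.36 ± 0.21), Gbp7 (0.25 ± 0.17) and Gbp2 (0.11 ± 0.29) did not reach an unadjusted p of 0.05. At membranes, Ifitm3 ranged from 2.92 to 3.59 in old control and from 3.34 to 4.67 in old anti-miR-mix mice, with medians of 3.34 and 3.72 and a log2 fold change of 0.61 ± 0.20 (adjusted p = 0.228 in edgeR). Bst2 had 0.49 ± 0.26.

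Of the IFIT proteins none reached an unadjusted p of 0.05. Ifit3 had medians of 3.52 and 3.84 and a log2 fold change of 0.42 ± 0.26, and Ifit1 0.62 ± 0.31. Of the 2 antiviral enzymes that are genomic neighbours, Rsad2, or viperin, had 0.78 ± 0.40 and Cmpk2 0.08 ± 0.08, the smallest value of all members. Rsad2 spanned 6.96-fold over the 19 libraries and Cmpk2 1.52-fold.

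Of the 11 further effectors, 9 had an unadjusted p under 0.05. They were Ifi27l2a (0.87 ± 0.34), Trim30a (0.67 ± 0.24), Rtp4 (0.66 ± 0.26), Ifi35 (0.57 ± 0.20), Sp100 (0.51 ± 0.17), Samd9l (0.47 ± 0.19), Xaf1 (0.46 ± 0.17), Lgals9 (0.43 ± 0.13) and Lgals3bp. Rtp4 had a log2 CPM of 1.54 to 2.71 in old control mice (median 1.95) and of 2.13 to 3.56 in old anti-miR-mix mice (median 2.5). Ifi44 had a log2 fold change of 0.65 ± 0.33. Ifi27 ranged from 5.21 to 5.50 and from 5.13 to 5.95, with 0.21 ± 0.10, and its treated group had both the highest and the lowest library.

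The comparison of old anti-miR-mix with young mice shares its treated libraries with the one before, and differs in age and treatment at once. Here 3 of 44 members rose, or 6.82%, where 6.2% of all genes changed (4.57% rose and 1.63% fell). They were Lgals3bp, Sp100 and Ifi27. The fitted log2 fold change was above 0 for 43 members (51% of all genes), with a median of 0.38, and 14 reached an unadjusted p under 0.05, all higher, against 19.6% of genes (11.3% higher and 8.31% lower). In no member were the groups apart, against 1.79% of genes that were wholly higher and 0.627% wholly lower in old anti-miR-mix mice. Without old anti-miR-mix replicate 4 the median was 0.17 and 2 members were called, Lgals3bp higher and Cmpk2 lower, where 5.27% of all genes were called. Without young replicate 3 the median was 0.48 and 7 were called, all higher, where 5.3% of all genes were called. DESeq2 called 4, with Lgals9 added, and 7.88% of all genes.

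Lgals3bp had a log2 CPM of 4.35 to 5.51 in young mice (median 4.89) and of 5.19 to 6.41 in old anti-miR-mix mice (median 5.80). Young replicates 3 and 5 lay above old anti-miR-mix replicate 6, the only treated library within the young range. The log2 fold change was 0.95 ± 0.18 (adjusted p = 0.00177 in edgeR), and it passed under all 31 alternatives, with adjusted p from 0.000112 to 0.00839. Within numbers the difference of means was 1.45, 1.14, 0.95 and 0.16 for numbers 1 to 4.

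Sp100, a component of nuclear bodies, ranged from 1.74 to 2.81 in young mice (median 2.39) and from 2.5 to 3.60 in old anti-miR-mix mice (median 2.76). The upper young libraries overlapped with the lower treated ones. Its log2 fold change was 0.63 ± 0.18 (adjusted p = 0.0358 in edgeR), and it passed under 21 of 31 alternatives. Ifi27 ranged from 4.94 to 5.42 in young mice (median 5.25) and from 5.13 to 5.95 in old anti-miR-mix mice (median 5.48), with 0.39 ± 0.11 (adjusted p = 0.0304 in edgeR) and 24 of 31 alternatives past the threshold. Its highest libraries were old anti-miR-mix replicates 1, 3 and 4. Without old anti-miR-mix replicate 4 the adjusted p was 0.0812 for Sp100 and 0.0646 for Ifi27 in edgeR.

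The remaining members had adjusted p of 0.0571 (Lgals9, 0.42 ± 0.13), 0.0813 (Trim30a, 0.74 ± 0.25) or more. Trim30a, a TRIM protein, ranged from 1.75 to 3.60 in young mice (median 2.78) and from 2.81 to 4.29 in old anti-miR-mix mice (median 3.52), and overlapped at these ends. Oasl1 had a log2 fold change of 0.90 ± 0.47, Zbp1 of 0.79 ± 0.44 and Oas2 of 0.71 ± 0.34, each with a young replicate 3 that lay well inside the treated range. Usp18 had 0.00 ± 0.30, Mx2 0.03 ± 0.20, Irf9 0.09 ± 0.11 and Stat2 0.13 ± 0.07. Ifit3 had 0.24 ± 0.25, Isg15 0.41 ± 0.38, Irf7 0.45 ± 0.34, Oasl2 0.42 ± 0.30, Ifih1 0.26 ± 0.16, Ddx58 0.22 ± 0.17, Gbp3 0.25 ± 0.20, Rtp4 0.50 ± 0.26, Bst2 0.56 ± 0.26 and Ifitm3 0.42 ± 0.20. Cmpk2 was the only member below 0, at -0.12 ± 0.08.

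The interferons themselves were almost unread. Of 45 pathway genes 35 were tested, and the 10 that were not are all ligands. Ifnb1 had 3 reads in old anti-miR-mix replicate 4, 1 in old control replicate 3 and 0 in the other libraries, where a count of 0 allows up to 3 reads. Ifna1, Ifna4, Ifna5, Ifnl2 and Ifnl3 had 0 reads in all 19 libraries. Ifng had 3 reads in each of old control replicates 2 and 3 and 1 in each of young replicate 3, old control replicate 1 and old anti-miR-mix replicate 4. These counts are too low to order the libraries, and they cover counting error only.

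The receptor subunits varied little. Ifnar1 had a log2 CPM of 5.55 to 5.77 in young, 5.55 to 5.66 in old control and 5.54 to 5.68 in old anti-miR-mix mice, with log2 fold changes of -0.02 ± 0.04 with age and 0.03 ± 0.03 with the inhibitors. Ifnar2 had 0.06 ± 0.07 and 0.10 ± 0.07.

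With age, 2 of 35 tested pathway genes fell and 0 rose, where 1.34% of all tested genes fell and 1.32% rose. Irf3, the factor that starts interferon transcription, fell by 0.24 on the log2 scale (SE 0.06, adjusted p = 0.0266 in edgeR), and Traf3, a signalling adaptor, fell by 0.14 (SE 0.04, adjusted p = 0.0393). Irf3 ranged from 4.38 to 4.71 in young and from 4.13 to 4.29 in old control mice, which did not overlap. Over all genes 1.28% were wholly lower in old control mice. Between the old groups 2 of 35 rose and 0 fell, where 0.669% of all genes rose. They were Tlr7, an endosomal sensor of RNA (0.74 ± 0.14, adjusted p = 0.0217 in edgeR), and Irf8, a factor of microglia and macrophages (0.74 ± 0.15, adjusted p = 0.0248 in edgeR). Tlr7 ranged from 1.96 to 2.43 in old control and from 2.39 to 3.29 in old anti-miR-mix mice. Between old anti-miR-mix and young mice 10 of 35 rose and 1, Traf3, fell, where 4.57% of all genes rose and 1.63% fell.

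Over all tested genes 2.67% changed with age and 0.669% rose between the old groups. Of the 54 tested other interferon-stimulated genes, 0 changed with age and 1 rose between the old groups. It was Ifi207, a member of the interferon-inducible DNA-binding family of Ifi16, with 1.62 ± 0.37 (adjusted p = 0.0434 in edgeR) and a log2 CPM of -0.46 to 1.29 in old control and 0.91 to 2.98 in old anti-miR-mix mice. Its paralogs may share reads with it. The median log2 fold change of the list was -0.04 with age and 0.42 with the inhibitors. Between old anti-miR-mix and young mice 7 of 54 rose and 0 fell, with Tap1, a peptide transporter of antigen presentation, at 0.79 ± 0.16 (adjusted p = 0.00429 in edgeR), Psmb9, a subunit of the immunoproteasome, at 0.79 ± 0.21 and Sp110 at 0.82 ± 0.21. Of all tested genes 4.57% rose and 1.63% fell in that comparison.

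Over all tested genes 0.669% rose between the old groups, and with age 1.32% rose and 1.34% fell. Of 14 microglia markers, 4 rose between the old groups (Trem2, Fcrls and Csf1r among them) and 0 fell, with a median of 0.28. With age 2 rose (Cx3cr1 and P2ry13), with a median of 0.21. Trem2, a lipid receptor, ranged from 3.90 to 4.50 in old control and from 4.53 to 5.06 in old anti-miR-mix mice, which did not overlap, with 0.67 ± 0.11 (adjusted p = 0.00773 in edgeR). Over all genes 0.425% were wholly higher in old anti-miR-mix mice. The border macrophage list had 1 of 8 markers that rose, Siglec1, at 1.64 ± 0.29 (adjusted p = 0.0115 in edgeR). Siglec1 is itself known as interferon-inducible. T and NK cell markers had a median of 0.73 between the old groups with 0 of 8 called, and endothelial markers a median of 0.03. With age the T and NK cell median was 0.40, also with 0 of 8 called. Of 8 oligodendrocyte markers, 4 fell with age, with a median of -0.37, and between the old groups 0 were called, with a median of 0.24. The leptomeningeal fibroblast medians were -0.72 and 0.47 with 0 of 8 called. The part of these shifts in the values of the members was not tested.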

How the data were processed

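Reads were 50-base single-end reads of polyadenylated RNA from 19 libraries. According to the study's methods and the submitters' processing notes, the authors aligned them to mm10 with STAR 2.5.2b and counted them per Ensembl gene with featureCounts (Subread 1.5.1), after FastQC 0.11.5, and deposited raw counts per library. Settings for strand and for reads with several matches are not given in the sources used here. The authors also deposited a table of log2 values, which was found to be log2 of CPM plus 1 over 18761 genes minus a slope per gene times a number from 1 to 4 per library (largest residual 3.4e-08). That number was recovered from the table and is called the processing number.

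Genes that reached 5 reads in 10 or more of the 19 libraries (19286 of 48709) were tested with edgeR 4.0.16 (TMM scaling, quasi-likelihood test, 1 fit over 3 groups, Benjamini-Hochberg adjustment over all tested genes, threshold 0.05) in R 4.3.3, and log2 CPM used a prior count of 2. DESeq2 1.42.0 and limma 3.58.1 served as alternatives, beside other scalings, filters, the processing number, merged libraries, the replicate block and each library left out. The labels do not say that the libraries of a group came from separate animals, so p-values measure only the spread between these libraries, which may be technical. Depth was 26653511 to 38908947 reads.

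The members and lists were chosen with earlier results of these data known. Members named with values were those past the threshold, the 5 whose log2 fold change was farthest from 0 at a mean of 20 reads or more, and 14 set representatives of the roles. Other members were named after their values were seen. Of the other lists, at most 6 past the threshold and Ifnar1, Ifnar2 and Irf8 were taken, and results of some listed genes are not reported here.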

Additional observations from a re-analysis of the deposited data

Results flagged for a closer look

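Cmpk2 in old anti-miR-mix replicate 4 stood apart from the other 6 libraries of its group. Its log2 CPM was 4.88, and the gap to the next library was 0.6269 of the group's whole range, above Dixon's 95% critical value of 0.568 for 7 samples. Of 138 groups of values examined, this was the 1 found. Chance alone flags about 1 group in 20, so more than 1 flag would arise without any real departure. The same library was the highest of its group for 42 of 44 members.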

How the results depend on the processing

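Of 768 values under 12 settings other than leaving out a library, 728 kept their direction and side of the threshold, and of 1216 values with 1 library left out, 1149 did. Counts were taken as kept within 1.5 times. Medians over the members were taken as kept if they moved by less than the SD between libraries, whatever their sign. The cause of each change below was not tested. Between the old groups, members called were 2 with DESeq2 and 0 with the processing number as a factor, the number as a linear term, limma on the deposited values, old control replicates 5 and 6 as 1 library, or only the 2 groups compared. Lgals3bp then had adjusted p of 0.454, 0.0687, 0.0641, 0.12 and 0.0568 in that order. Of all tested genes those fits called 0.0467%, 0.482%, 0.789%, 0.171% and 0.285%, and DESeq2 1.36%, against 0.669% in the first fit. Against young mice 1 was called with only the 2 groups compared, where 4.61% of all genes were called. Combining the factor with the merged libraries, chosen after seeing the data, called 0 between the old groups, where 0.0311% of all genes were called.

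With 1 library left out, members called ranged from 0 to 2 between the old groups and from 1 to 7 against young mice. Of all tested genes these fits called 0.119% to 1.27% between the old groups and 4.6% to 6.47% against young mice. Lgals3bp kept its call against old control mice without young replicates 1 or 3, or old anti-miR-mix replicates 1 or 6, and lost it without any other library.

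Directions turned for small values. With age and the number as a factor, the log2 fold change was 0.027 for Ifit3, 0.0697 for Isg15, 0.0281 for Ddx58 and 0.0347 for Gbp3. With the merged libraries as well, it was 0.1238 for Ifit3, 0.1619 for Isg15, 0.0898 for Ddx58, 0.1246 for Gbp3, 0.0281 for Ifitm3 and 0.0273 for Rtp4. With single libraries left out it ran from -0.3099 to 0.0605 for Ifit3, -0.4717 to 0.1145 for Isg15, -0.1571 to 0.0601 for Ddx58, -0.2169 to 0.0288 for Gbp3, -0.037 to 0.3022 for Bst2 and -0.3162 to 0.0607 for Rtp4. Against young mice Usp18 had -0.0016 with DESeq2 size factors, -0.0004 with DESeq2, -0.0008 with no filter, -0.1607 with the factor, -0.0055 with the linear term, -0.0007 with only the 2 groups, -0.1435 with factor and merged libraries, and -0.2513 to 0.2916 with 1 library left out.

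Whether the replicate numbers pair the samples cannot be told from these values. For each gene the mean of its group was subtracted, and these deviations were correlated over 19286 genes between same-numbered libraries. The correlations ran from -0.0158 to 0.1901 for old control and young, -0.1209 to 0.2136 for the old groups and -0.1695 to 0.1973 for old anti-miR-mix and young. Of 6 pairs, 2, 4 and 1 were highest for their own number. The replicate block called 0 members with age, 2 between the old groups (Irf9 and Lgals3bp) and 5 against young mice, where Usp18 had -0.0633. Of all tested genes the block called 3.38%, 1.29% and 6.18% in that order, against 2.67%, 0.669% and 6.2% without it.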
